A study of Mus musculus with 2 samples.

Results

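Amphiregulin (Areg) and proenkephalin (Penk) were followed as 2 of the 32285 genes counted in a single-cell RNA-seq experiment on mouse Tc17 cells, of which 19732 had at least 1 count in a kept cell. Both were chosen by their symbol because they stood out between the libraries in an earlier look at the same data, so their difference between libraries is given as a description. Tc17 cells are CD8 T cells driven in culture towards interleukin-17 production. Each library held CD8 T cells from mesenteric lymph nodes of C57/B6N mice, polarised with a commercial Th17 cytokine and antibody kit and then stimulated for 3 hours with 100 ng/ml of the phorbol ester PMA and 10 μg/ml ionomycin. One library came from wild-type mice. The other came from mice with floxed Nfatc1 alleles and Cd4-Cre, a transgene that acts in developing T cells and so also in the CD8 lineage. The labels give no age, no number of mice and no repeat library, so each group is 1 library and no test between groups was possible. All intervals below are 95% intervals and cover counting error only.

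Areg encodes a ligand of the epidermal growth factor (EGF) receptor that is made as a membrane protein and released by metalloproteases, and it is known in T cells for its part in tissue repair. Penk encodes the precursor of the enkephalins, short opioid peptides that are cut out by proprotein convertases and trimmed by carboxypeptidases. Both genes are known to be induced by stimulation, and enkephalins are known to be made by some activated T cells.

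The kept cells numbered 1018 and 709, with a median of 20906 and 21436 unique molecular identifiers (UMIs) per cell in the wild-type and deficient library and no barcode in common. Nfatc1 itself stood at 39.8 CPM (counts per 1000000) in the wild-type library and at 136 CPM in the deficient one, 3.42-fold higher (interval 3.17 to 3.68). That goes against the label, although the kit reads transcripts at their 3′ end and the labels do not say which exons were floxed, so the level does not show whether the deletion took place. From here on each library goes by its label alone, as wild-type-labelled or deficient-labelled. Within each library a single multiplexing tag led, in all 1018 and all 709 cells.

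Areg (ENSMUSG00000029378) lies on chromosome 5 at 91139599 to 91148432 on the plus strand of mm10, and Penk (ENSMUSG00000045573) on chromosome 4 at 4133531 to 4138819 on the minus strand. The 250 bases before the RefSeq start of Areg (GRCm38.p6, chr5:91139349-91139598, plus strand) are shown because Areg differed between libraries labelled by an NFAT gene. Capitals mark, from 5′ to 3′, the NFAT core GGAAA, the cAMP response element TGACGTCA and the TATA box TATAAA.
Areg promoter: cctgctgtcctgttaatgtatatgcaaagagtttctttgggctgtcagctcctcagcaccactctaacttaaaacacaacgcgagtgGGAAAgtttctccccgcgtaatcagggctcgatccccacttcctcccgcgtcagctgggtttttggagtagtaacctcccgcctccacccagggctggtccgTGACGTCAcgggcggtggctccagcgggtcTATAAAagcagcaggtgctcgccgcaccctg
The response element began 61 bases before the start and was found, on either strand, in 508 of 32851 RefSeq windows of the same length (1.55%). GGAAA began 163 bases before the start, and its letters or their complement TTTCC occurred in 55.6% of the windows. TATAAA began 31 bases before the start and was in 12.4% of the windows, counting TTTATA as well. The letters TGCGTCA and TGANTCA, an AP-1-like and the AP-1 motif, were not in the Areg window, and 1.75% and 6.75% of all windows held them. A match is a run of letters and not a measured binding site.

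Areg was carried by few cells, and most of its transcripts sat in a small number of them. In the wild-type-labelled library 381 Areg UMIs gave 15.6 CPM (interval 14.1 to 17.2), found in 74 of 1018 cells (7.27%). The richest cells held 78, 64 and 36 UMIs, 4 cells held at least 50% of all Areg UMIs, and 41 of the 74 cells had a single UMI. In the deficient-labelled library 1288 UMIs gave 72.0 CPM (68.1 to 76.0), in 169 of 709 cells (23.8%). There the richest cells held 108, 67 and 56 UMIs, 17 cells held at least 50% of the UMIs, and 37 cells had 10 or more against 6 cells in the other library. Deficient-labelled Areg CPM was thus 4.62-fold the wild-type-labelled level (4.12 to 5.19), or 2.14 on the log2 scale with a pseudocount of 1 CPM. Of 5584 genes with at least 20 CPM in either library, 2.27% exceeded a 2-fold increase by this measure and 2.08% a 2-fold decrease, and Areg ranked 20 from the top. That position is what brought Areg into view, so nothing is read from it.

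Penk transcripts were rare and very unevenly spread over cells in both libraries. Its 421 wild-type-labelled UMIs gave 17.2 CPM (15.6 to 18.9) and lay in 41 of 1018 cells (4.03%). One cell held 114 of them (27.1%), the next held 36 and 27, and 22 cells had a single UMI. The deficient-labelled library had 2838 UMIs, or 159 CPM (153 to 165), in 86 of 709 cells (12.1%). Its richest cells held 511, 351 and 132 UMIs, and 7 cells held at least 50% of the total. Deficient-labelled Penk CPM was 9.21-fold the wild-type-labelled level (8.31 to 10.2), 3.13 on the log2 scale, which is rank 4 among the same genes. The intervals treat UMIs as independent, whereas the 5 richest cells held 53.9% and 44.2% of the Penk UMIs in the wild-type-labelled and deficient-labelled library. Without the 5 richest cells of each library the log2 ratio was 3.33 for Penk and 2.90 for Areg.

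Depth was equalised before cells were counted as carrying either gene, by drawing 5000 UMIs from each cell and leaving out the 14 and 11 cells with fewer. After thinning, 23 of 1004 wild-type-labelled cells (2.29%, interval 1.46 to 3.42) and 93 of 698 deficient-labelled cells (13.3%, 10.9 to 16.1) had at least 1 Areg UMI. Penk was found in 13 wild-type-labelled cells (1.29%, 0.691 to 2.20) and in 56 deficient-labelled cells (8.02%, 6.12 to 10.3). At 2 or more UMIs of 5000, Areg was found in 6 and 53 cells and Penk in 8 and 38 cells. No cell type known to lack either gene was set aside in the culture to give a background of free RNA. The naive-like cluster, picked after its values were seen, had an Areg UMI in 1 of 48 wild-type-labelled cells (2.08%, 0.0527 to 11.1) and 1 of 39 deficient-labelled cells (2.56%, 0.0649 to 13.5), at median depths of 24118.5 and 11019 UMIs. Penk was found there in 0 of 48 (interval up to 7.40%) and 3 of 39 cells (7.69%, 1.62 to 20.9). The part of free RNA in cells with a single UMI was not tested.

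**Figure D1:**
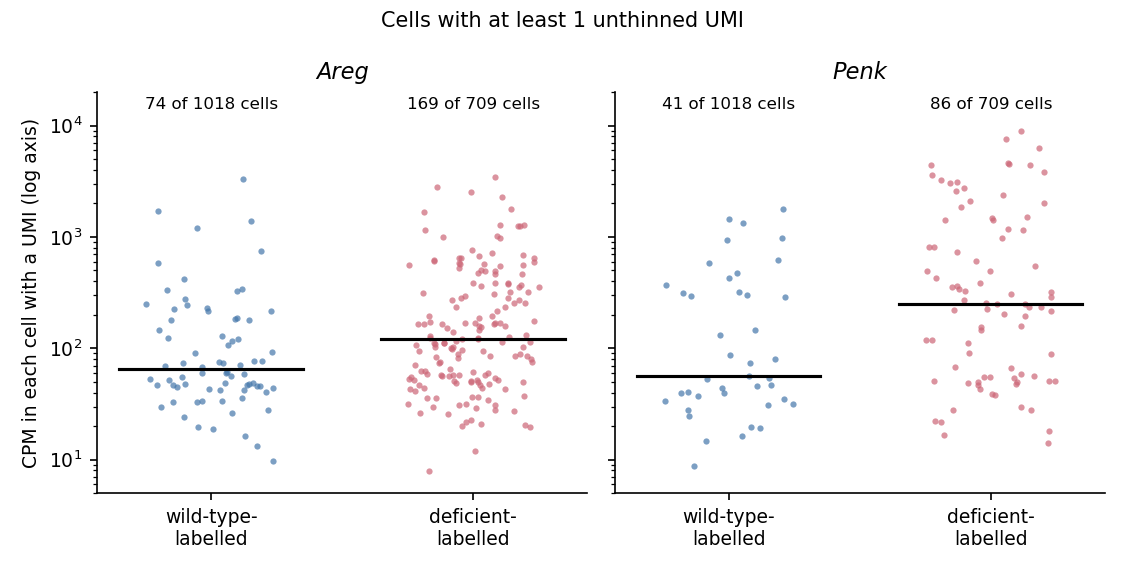
Areg and Penk CPM (log axis) in each cell with at least 1 unthinned UMI, by library; each point is a cell and the line is the median of those cells. Most wild-type-labelled carriers of either gene sit near the level of a single UMI, and the deficient-labelled library has more carriers (169 against 74 for Areg, 86 against 41 for Penk) and higher top cells.

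Among deficient-labelled cells Areg was most frequent in clusters 2 and 1. The clusters were computed over both libraries without Areg and Penk. Cluster 2 (64 wild-type-labelled and 112 deficient-labelled cells) was led by Cd40lg, Il1r2, Tff1 and Il21, and cluster 1 (32 and 181 cells) by Samd4, Camk2d and Tex15. Neither met the marker rule for a name. Among deficient-labelled cells 33 of 112 in cluster 2 had an Areg UMI of 5000 (29.5%, 21.2 to 38.8), as did 33 of 181 cells of cluster 1 (18.2%, 12.9 to 24.6). Then came cluster 3 with 1 of 8 cells, the type 17-like cluster 0 with 2 of 18 cells (11.1%) and the cycling-like cluster 4 with 3 of 30 cells (10.0%). The cytotoxic type 1-like cluster 7, led by Gzmb, Ifng and Ccl1, held 303 thinned cells and had Areg in 20 of them (6.60%, 4.08 to 10.0), below the intervals of clusters 1 and 2. Neighbours in this order had overlapping intervals. Wild-type-labelled Areg cells were too few to rank the clusters. The type 17-like cluster, 43.9% of that library, held 14 of the 23 Areg cells, in 14 of 441 cells (3.17%, 1.75 to 5.27). Over all cells the share was 2.29%. Cluster 2 had 2 of 61 cells (3.28%, 0.400 to 11.3), cluster 1 had 0 of 32 (interval up to 10.9%), and the cytotoxic type 1-like cluster 2 of 21 (9.52%, 1.17 to 30.4). These intervals overlapped. By mean CPM per cell the type 17-like cluster stood at 12.9 against 15.2 over all cells. Cluster 2 stood at 29.0, cluster 1 at 0 and the cytotoxic type 1-like cluster at 175.

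Penk was spread differently over the clusters. Among deficient-labelled cells 8 of 30 cycling-like ones had a Penk UMI of 5000 (26.7%, 12.3 to 45.9), followed by 23 of 112 cells of cluster 2 (20.5%, 13.5 to 29.2). Cluster 3 had 1 of 8 cells, the naive-like cluster 3 of 39 cells and the type 17-like cluster 1 of 18 cells (5.56%). The cytotoxic type 1-like cells stood at 4.29% (2.30 to 7.23) and cluster 1 at 3.87% (1.57 to 7.81), both below the interval of cluster 2. The cycling-like cells made up 4.30% of the deficient-labelled cells and held 46.4% of its Penk UMIs, at a mean of 528 CPM per cell against 131 CPM over all cells. They were also deeper, with a median of 64361.5 UMIs against 21510.5 over all cells, which raises their share of UMIs. Their wild-type-labelled counterparts made up 12.6% of the cells and held 52.97% of the Penk UMIs, at 30.8 CPM per cell against 11.6 CPM. Their median depth was 41493 UMIs against 21003.5. Over the whole library 7 deficient-labelled and 5 wild-type-labelled cells held at least 50% of the Penk UMIs, so these shares and means can rest on few cells. A Penk UMI of 5000 was found in 4 of the 127 wild-type-labelled cycling-like cells (3.15%, 0.865 to 7.87). Wild-type-labelled cluster 2 had 2 of 61 (3.28%) and cluster 1 had 1 of 32 (3.13%). By mean CPM Areg showed the reverse order, at 36.9 CPM in cycling-like cells against 75.9 CPM over all deficient-labelled cells. Among wild-type-labelled cells these means were 6.59 and 15.2 CPM. By share of UMIs Areg was not reversed. The cycling-like cells held 7.14% of its deficient-labelled and 20.1% of its wild-type-labelled UMIs, both above their shares of cells. None of 127 wild-type-labelled cycling-like cells had an Areg UMI of 5000, which allows a share of up to 2.36% by 3 counts of the total (interval up to 2.86%).

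**Figure D2:**
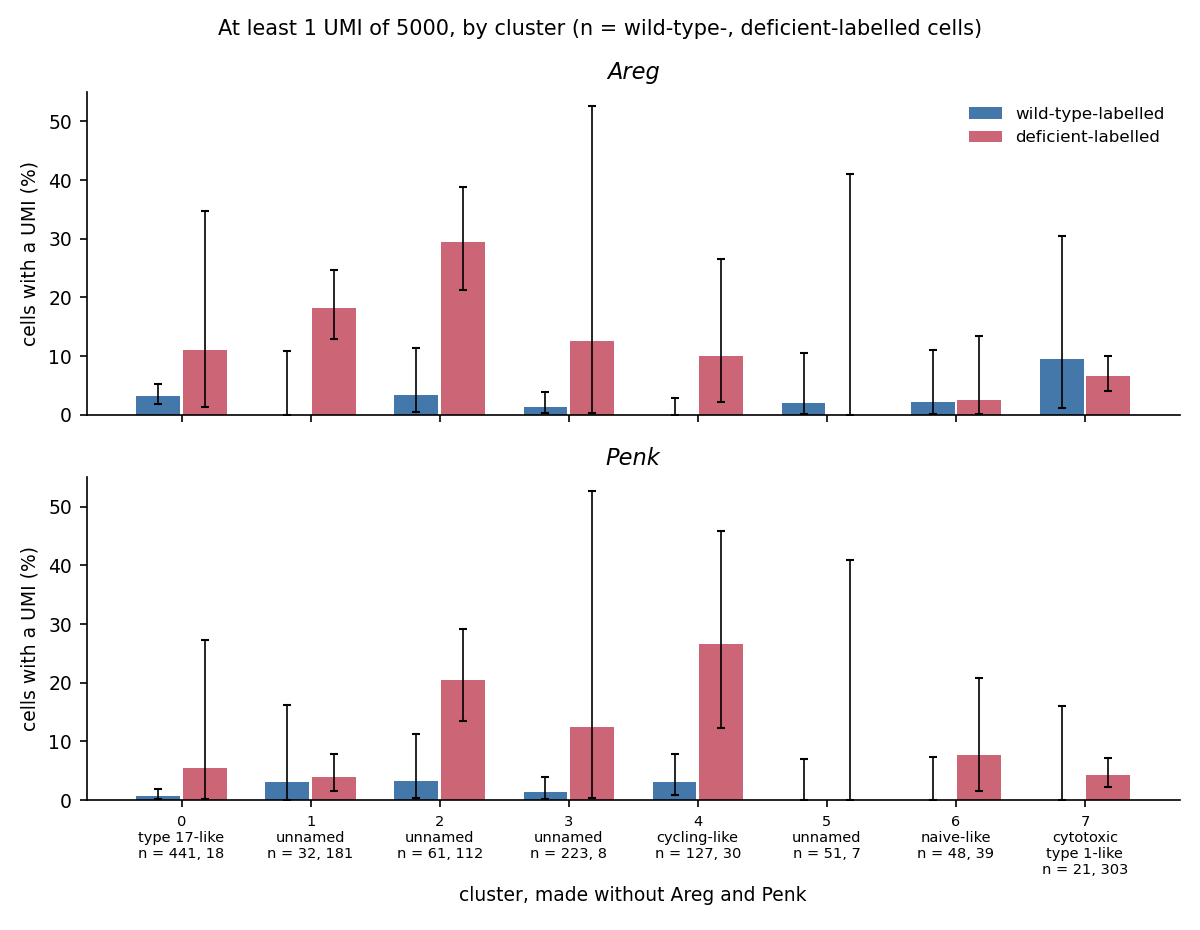
Percentage of cells with at least 1 UMI of 5000 of Areg (top) and Penk (bottom) in each cluster, by library; bars are shares, error bars exact binomial 95% intervals, and n gives the cells. In the deficient-labelled library Areg is highest in cluster 2 (29.5%) and cluster 1 (18.2%), and Penk in clusters 4 (26.7%) and 2 (20.5%).

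Cells were also classed by whether they had at least 5 of 5000 UMIs of Il17a, Ifng and Il2, the cytokines that describe the polarisation. These classes are ranges of counts and not cell types. Areg was most frequent, among deficient-labelled cells, in those with Il17a and Il2 but not Ifng, in 29 of 93 cells (31.2%, 22.0 to 41.6). It was found in 16.3% of the 160 cells with Il2 alone (10.9 to 22.9), in 14.0% of the 43 cells with Il17a alone, and in 7.11% of the 239 cells with Ifng and Il2 (4.20 to 11.1). Penk was most frequent in cells with Il17a alone, 10 of 43 (23.3%, 11.8 to 38.6), and in cells with Il17a and Il2, 16 of 93 (17.2%, 10.2 to 26.4). It was found in 4.38% of cells with Il2 alone and in 3.35% of cells with Ifng and Il2 (1.46 to 6.49). The matching wild-type-labelled class with Il17a and Il2 held 372 cells, of which 11 had Areg (2.96%, 1.49 to 5.23) and 5 had Penk (1.34%, 0.438 to 3.11). That class was 76.6% cluster 0 cells in the wild-type-labelled library and 67.7% cluster 2 cells in the deficient-labelled one, so the same cytokine range held different clusters.

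Taken 1 cytokine at a time, a view added after these values were seen, both genes were more frequent, over all deficient-labelled cells, in those with Il17a and less frequent in those with Ifng. Areg was found in 23.5% of 170 cells with Il17a (17.4 to 30.6) and in 10.0% of 528 cells without (7.61 to 12.9). Penk was found in 17.1% (11.7 to 23.6) and 5.11% (3.40 to 7.35) of these cells, and the cells with Il17a held 79.5% of the Penk UMIs. For Ifng the Areg shares were 7.31% with and 17.9% without it, and the Penk shares 4.32% and 10.8%. The genes parted on Il2. Areg was found in 14.7% of cells with Il2 (11.8 to 18.1) and 9.14% without (5.32 to 14.4), and Penk in 6.50% with (4.54 to 8.97) and 12.6% without (8.05 to 18.41), with overlapping intervals for each gene. Within cluster 2 of the deficient-labelled library the same split gave Areg in 27 of 73 cells with Il2 and 6 of 39 without (37.0% and 15.4%), and Penk in 11 of 73 and 12 of 39 (15.1% and 30.8%). Those intervals overlapped too. Inside the clusters the split by Il17a did not go 1 way. In cluster 2 Areg was found in 30 of 92 cells with Il17a (32.6%) and 3 of 20 without, but Penk in 18 of 92 (19.6%) and 5 of 20. In cluster 1 Areg was found in 2 of 14 cells with Il17a (14.3%) and 31 of 167 without (18.6%), and in 27 of 149 with Il2 (18.1%) and 6 of 32 without (18.8%).

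**Figure D3:**
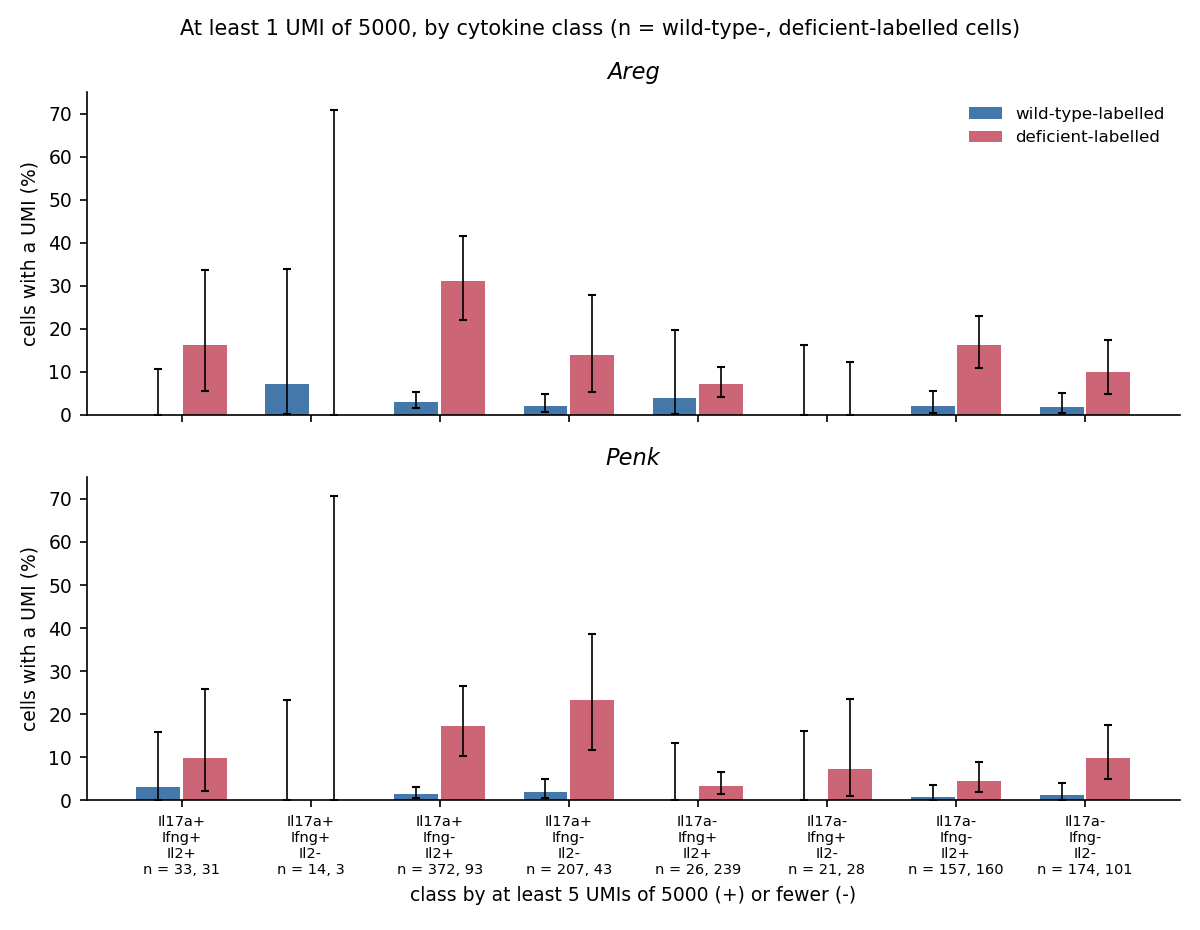
Percentage of cells with at least 1 UMI of 5000 of Areg (top) and Penk (bottom) in the 8 classes by Il17a, Ifng and Il2, by library; bars are shares, error bars exact binomial 95% intervals, and n gives the cells. In the deficient-labelled library Areg peaks at 31.2% in cells with Il17a and Il2 only, and Penk at 23.3% in cells with Il17a only; the widest intervals belong to a class of 3 cells.

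Some deficient-labelled cells carried both genes. Penk was found in 17 of the 93 cells with an Areg UMI of 5000 (18.3%, 11.0 to 27.6) and in 39 of the 605 cells without (6.45%, 4.62 to 8.71). In the wild-type-labelled library it was found in 0 of 23 Areg cells (interval up to 14.8%) and in 13 of 981 others (1.33%). Before thinning, 37 deficient-labelled and 4 wild-type-labelled cells had both. Of these, 6 deficient-labelled cells and no wild-type-labelled cell had 10 or more UMIs of each. The richest cells differed by gene: of the 10 deficient-labelled cells with the most Penk 9 also held Areg, whereas of the 10 with the most Areg 2 held Penk. The deficient-labelled cell with the most Penk, 511 UMIs, held 42 Areg UMIs, whereas the cell with the most Areg, 108 UMIs, held no Penk. Over cells, Pearson's r of log counts per 10000 between Areg and Penk was 0.217 for deficient-labelled cells and 0.0147 for wild-type-labelled cells. The cells of a library share its depth and free RNA, and the latter value is too weak to read.

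**Figure D4:**
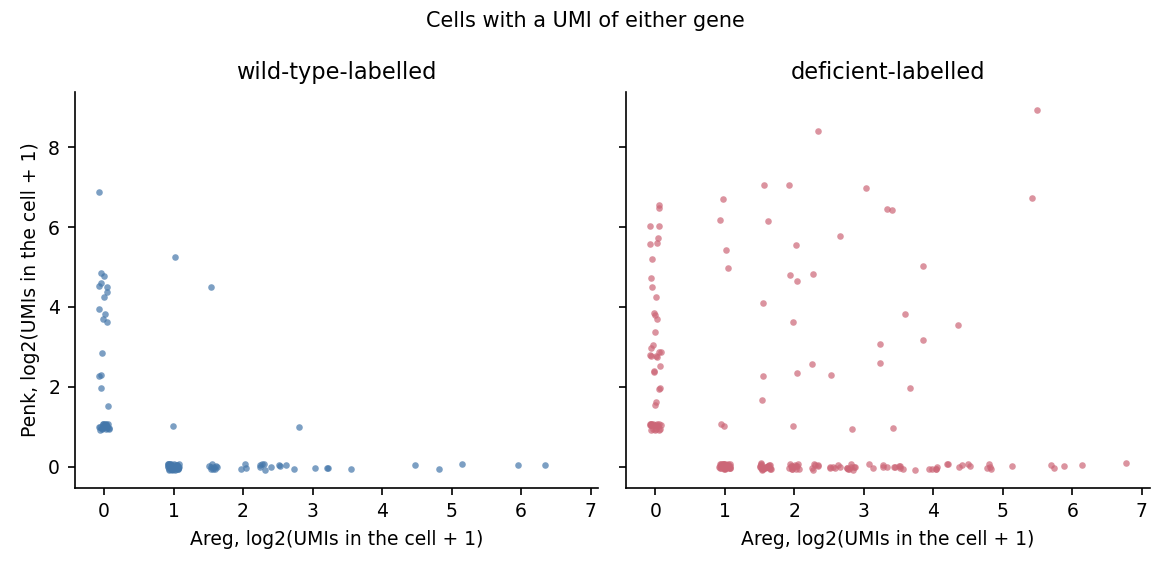
Areg against Penk UMIs per cell, as log2 of the unthinned count plus 1, for cells with a UMI of either gene; points are jittered slightly, left wild-type-labelled, right deficient-labelled. Only 4 wild-type-labelled but 37 deficient-labelled points lie off both axes.

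For the genes that go with each member, cells with at least 2 of 5000 UMIs, called carriers here, were set against cells with 0. A gene was called where, on the higher side, its mean CPM per cell was at least 50 and it had UMIs in at least 20% of the cells. The log2 ratio with a pseudocount of 5 CPM also had to be at least 1 in either direction. A higher gene could thus pass the floor through the carriers alone. All carriers of both genes had at least 3 of 12 CD8 T-cell markers. Their median summed CPM over those markers was 3907 in deficient-labelled Areg carriers against 3997 in cells with 0, and 5133 in Penk carriers against 3934. NK cell, myeloid, dendritic, stromal, mast cell and gamma delta T-cell lists reached 3 markers in no carrier. They did so in no cell with 0 either, so this count does not set carriers apart. Only 3 genes of the gamma delta list were counted. The median summed CPM of the NK, myeloid and dendritic lists was 0 in all 4 sets of carriers and in their cells with 0. At least 3 of 7 B-cell markers were found in 3 of the 38 deficient-labelled Penk carriers (7.89%) and 0.623% of cells with 0, with a summed level of 0 to 682 CPM in carriers and 0 to 11658 CPM in the others. Cd79a was at 0 in these carriers, and Cd74 made up most of the sum, at 68.1 against 37.1 CPM. A group 2 innate lymphoid list of 10 genes, which includes Areg, reached 3 markers in 4 of the 38 (10.5%) and in 1.25% of the others, summing to 0 to 2556 CPM and 0 to 3460 CPM. Its genes Arg1, Il5, Hes1, Klrg1 and Nmur1 were at 0 in the carriers. The other 5, Areg, Kit, Il13, Il1rl1 and Calca, had UMIs there. Of its 2 measured genes Areg was called higher, at a log2 ratio of 1.69, and Kit stood at 0.73. Neither list reached 3 markers in any carrier of the other 3 sets, and the part of these markers in the Penk results was not tested. Deficient-labelled Areg carriers had a median of 20512 UMIs and a median main-tag share of 80.2%, against 21640 UMIs and 86.3% in cells with 0. Deficient-labelled Penk carriers had 24891.5 UMIs and 83.8% against 21471 UMIs and 85.9%, and 1 of these 38 cells was called a doublet. The part of depth and tag share in the gene differences was not tested.

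Deficient-labelled Areg carriers (53 cells, against 605 with 0) had more type 17 transcripts and fewer cytotoxic ones. In that library 63 of 3256 measured genes were higher in carriers (1.93%) and 28 were lower (0.86%). Of 7 measured type 17 genes 5 were higher and none lower, with a list median of 1.10 on the log2 scale against 0.10 over all genes. Counted with no floor, 13 of 14 type 17 genes averaged more in carriers than in cells with 0, with a median of 0.79. Il17a, the signature cytokine, averaged 6167 CPM in carriers and 3039 CPM in other cells, and Il17f 7966 and 3708 CPM. Rora, a transcription factor of the type 17 program, averaged 526 and 227 CPM. Of 8 measured cytotoxic type 1 genes 4 were lower, and 2 (Ccl5 and Cd160) were higher. Gzmb, a granule protease, averaged 56.2 CPM in carriers and 730 CPM in cells with 0, Ifng 1198 and 7034 CPM, and Nkg7 76.5 and 465 CPM. By these counts the 6 wild-type-labelled carriers did not show that order. In them 1 of 6 measured type 17 genes was higher and none lower, with a median of -0.20. Of 7 cytotoxic type 1 genes 4 were higher and 2 lower, with a median of 1.02. Counted with no floor, 12 of 14 type 17 genes averaged less in these carriers than in cells with 0. The median summed CPM per cell did show that order, at 36955 against 13919 CPM for type 17 genes. For cytotoxic type 1 genes it was 1197 against 4170 CPM. The members of these lists were chosen with earlier results of the same cells known, and the classes above show the same counts in another form.

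By size of ratio, Nrn1 led the deficient-labelled Areg list. It encodes neuritin, a surface-anchored protein, and averaged 137 CPM in carriers against 9.97 CPM. Penk itself came next, at 578 against 74.7 CPM, then Kcnk10, a potassium channel, at 56.2 against 6.28 CPM, and Il1r2, the decoy receptor for interleukin-1, at 930 against 203 CPM. Nrn1 and Kcnk10 passed the floor only through the carriers. They had UMIs in only 20.8% and 22.6% of the deficient-labelled carriers, so most carriers had none. Penk had UMIs in 24.5% of these carriers and Il1r2 in 60.4%. All the genes named here were picked after their values were seen. In the wild-type-labelled library none of them was called, and Nrn1 and Penk were at 0 in its 6 carriers.

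The same rule met in both libraries by 12 of 2896 genes on the higher side (0.414%) and 6 on the lower side (0.207%). The wild-type-labelled library alone gave 306 of 3312 higher (9.24%) and 176 lower (5.31%), from only 6 carriers, so the 12 shared genes were 19.0% of the deficient-labelled list and 3.92% of the wild-type-labelled one. Runx1, a transcription factor of T-cell development, led with 240 against 40.2 CPM among wild-type-labelled cells and 208 against 57.2 CPM among deficient-labelled cells. Gem, a small GTPase induced by stimulation, had 240 against 73.0 CPM and 181 against 47.8 CPM. Pdcd1lg2, the PD-1 ligand PD-L2, had log2 ratios of 1.37 and 1.49, and Jarid2, a Polycomb cofactor, 1.11 and 1.28. In both libraries Pdcd1lg2 passed the floor only through the carriers. Srxn1, the antioxidant enzyme sulfiredoxin, had 2.70 and 1.09. Frmd6, Phactr2, Camk2d, Cd160 and Il17a had smaller ratios between 1.02 and 1.12 in the library where they were lower. Camk2d and Cd160 are also leading genes of clusters 1 and 2, which held 41.5% and 37.7% of the deficient-labelled Areg carriers. The part of the clusters in these ratios was not tested. On the lower side stood the proliferation-linked genes Hist1h2ap, Stmn1, Hist1h1e and Hmgb2, with deficient-labelled log2 ratios of -2.45, -2.14, -1.63 and -1.53, and Rac2 at -1.36. Ifng and Nkg7 were called in opposite directions by their means, with 7346 against 1078 CPM of Ifng in wild-type-labelled carriers. Only 1 of those 6 carriers had at least 5 of 5000 Ifng UMIs. Any Ifng UMI was found in 50% of them and in 51.7% of cells with 0. Without the cytotoxic type 1-like cluster, a run added after seeing the data, 5 of the 10 higher genes no longer met the rule, with smaller log2 ratios of 0.28 for Il17a, 0.67 for Camk2d, 0.79 for Phactr2, 0.93 for Cd160 and 0.99 for Frmd6. The shared list depends on the cutoff for a carrier: at 1 UMI of 5000, with 23 and 93 carriers, no gene met the rule in both libraries, although the 15 named genes kept their direction. With carriers by 2 or more unthinned UMIs, a choice made after seeing the data, Gem alone met it, and Phactr2, Hist1h2ap, Stmn1, Hist1h1e and Hmgb2 had opposite signs in the libraries.

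Some Penk carriers held cycling genes. The rule for a called gene was met in both libraries by 26 of 2945 genes on the higher side (0.883%) and 2 on the lower side (0.0679%). The wild-type-labelled library gave 132 higher (3.98%) and 42 lower (1.27%) from 8 carriers, and the deficient-labelled library 207 higher (6.1%) and 16 lower (0.471%) from 38 carriers. The shared higher genes were 12.6% of the deficient-labelled list and 19.7% of the wild-type-labelled one. Counted with no floor on the level, all 14 cycling genes averaged more in deficient-labelled carriers than in cells with 0, and 11 of 14 did so in the 8 wild-type-labelled carriers. Mki67, a marker of dividing cells, averaged 67.7 against 18.0 CPM and 68.4 against 11.4 CPM. Birc5, which encodes survivin, averaged 61.8 against 15.1 CPM and 58.6 against 10.1 CPM. Diaph3, an actin-organising formin, had log2 ratios of 1.29 and 2.07. Mki67, Birc5 and Diaph3 passed the floor only through the carriers in both libraries. Mki67 had UMIs in only 25% of the 8 wild-type-labelled and 21.1% of the 38 deficient-labelled carriers, against 12.9% and 8.72% of cells with 0. For Birc5 these shares were 25% and 23.7%, against 13.9% and 9.66%. At least 3 of the 14 cycling genes were found in 3 of 8 wild-type-labelled carriers (37.5%) against 22.8% of cells with 0, and in 16 of 38 deficient-labelled carriers (42.1%) against 17.4%. The median summed level of the 14 genes was lower in wild-type-labelled carriers, at 18.3 against 60.9 CPM, and higher in deficient-labelled ones, at 93.0 against 50.6 CPM.

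Other genes that went with Penk in both libraries were not cell cycle genes. Tff1, which encodes a small secreted trefoil protein of mucosal surfaces, averaged 152 against 11.8 CPM among wild-type-labelled cells and 166 against 8.04 CPM among deficient-labelled cells. It was found in 57.9% of the deficient-labelled carriers and 5.30% of cells with 0. Tff1 is also a leading gene of cluster 2, which held 47.4% of those carriers, and the part of the cluster in its ratio was not tested. Ebf1, a transcription factor best known from B cells, averaged 298 against 11.8 CPM and 83.1 against 3.63 CPM, but had UMIs in only 37.5% of 8 and 28.9% of 38 carriers. Gem was again called, at 319 against 71.2 CPM and 231 against 45.8 CPM. Ext1, a heparan sulfate polymerase, had log2 ratios of 1.76 and 1.68, Ece1, a peptide-cleaving membrane protease, 1.62 and 2.06, Atrnl1 1.37 and 1.69, and Pdcd1, the inhibitory receptor PD-1, 1.55 and 1.32. Tff1, Ebf1, Atrnl1 and Pdcd1 passed the floor only through the carriers in both libraries. Ifng was lower, at 4.25 against 1083 CPM and 1781 against 6823 CPM, and so was the activation marker Cd69, at 261 against 596 CPM and 229 against 743 CPM. At 1 UMI of 5000, with 13 and 56 carriers, 12 genes were higher and 1 was lower in both libraries. Of the 10 higher genes named here 5 met the rule at that cutoff, and all 10 at 5 UMIs. Ifng had opposite signs in the libraries at 1 UMI, by unthinned UMIs and without the cytotoxic type 1-like cluster; in that last run the other named Penk genes were all still called.

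Many deficient-labelled Penk carriers also held transcripts that were nearly absent from other cells, genes picked after their values were seen. Shtn1, which encodes the neuronal protein shootin-1, averaged 239 against 2.72 CPM and was found in 42.1% of carriers and 1.09% of cells with 0. Kcnk10 averaged 129 against 2.57 CPM, and the acid-sensing ion channel gene Asic3 116 against 3.51 CPM. The tetraspanin gene Cd81 averaged 91.7 against 3.12 CPM, and Cd70, a costimulatory ligand, 179 against 10.4 CPM. Twist2, a transcription factor, was found in 52.6% of carriers and 2.96% of other cells. Each of these genes passed the floor only through the carriers. Shtn1, Kcnk10 and Twist2 were at 0 in the 8 wild-type-labelled carriers.

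Among the fixed lists, 5 of 8 measured type 17 genes were higher in deficient-labelled Penk carriers and none lower, with a median of 1.98, where 6.1% of all measured genes were higher and 0.471% lower and the median was 0.07. Ccl20 and Ccr6 passed the floor only through the carriers. Counted with no floor, 13 of 14 type 17 genes averaged more in carriers than in cells with 0. Ccl20, a chemokine, averaged 299.8 against 20.98 CPM, and its receptor Ccr6 62.0 against 9.39 CPM. Il17a averaged 10101 against 3035 CPM, and Tmem176a 346 against 56.6 CPM. In wild-type-labelled carriers the type 17 median was 0.10, with 0 of 7 higher and 1 lower. Early response genes leaned down, with 6 of 20 lower and 1 higher (Nr4a2, 181 against 71.5 CPM) and a median of -0.51. Egr1 averaged 45.8 against 108 CPM and Myc 153 against 345 CPM. The corresponding median in deficient-labelled Areg carriers was 0.17, with 0 of 20 called. The costimulatory receptor genes Tnfrsf4 (1070 against 177 CPM) and Tnfrsf18 (193 against 76.4 CPM) and the ectonucleotidase gene Nt5e (123 against 49.98 CPM) were higher in deficient-labelled Penk carriers. The Areg and Penk contrasts share most of their cells with 0 and some carriers, so their lists are not independent of each other.

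**Figure D5:**
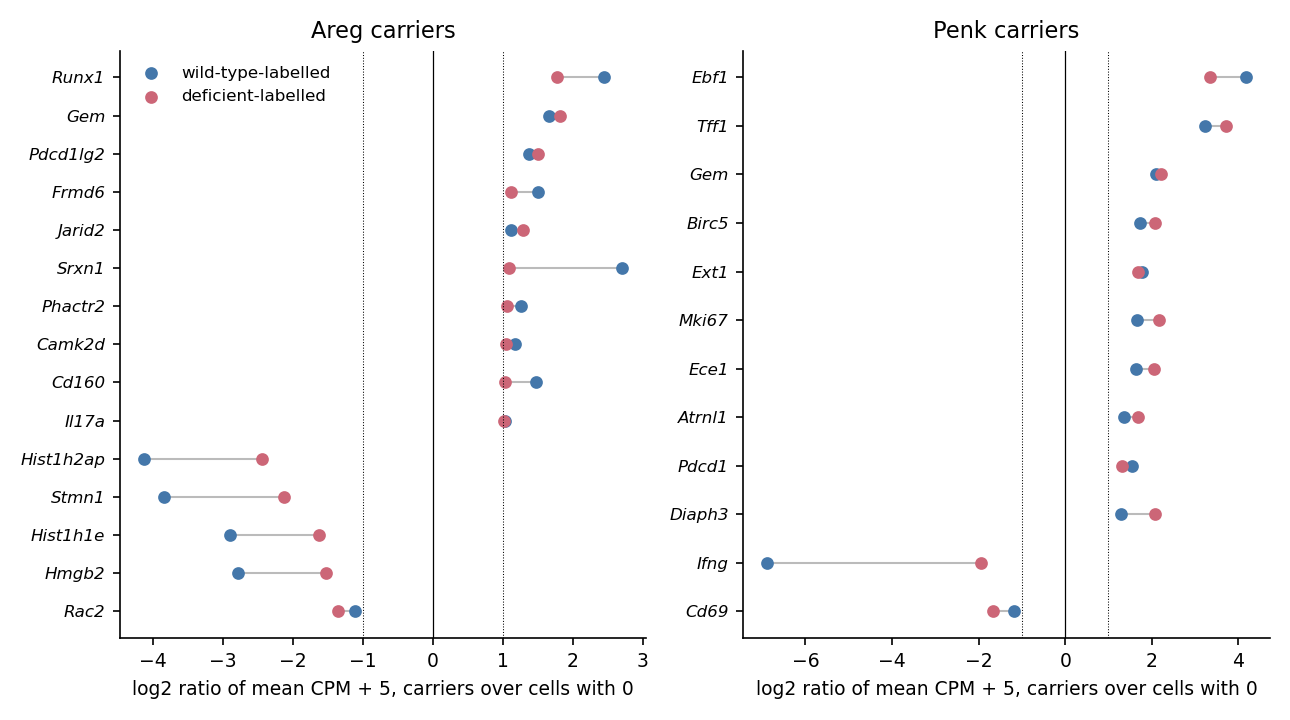
Log2 ratio of mean CPM per cell plus 5 in carriers (at least 2 of 5000 UMIs) over cells with 0, for the named genes that met the size rule in both libraries; dots are libraries and dotted lines mark 2-fold. Areg carriers (left, 6 and 53 cells) have lower proliferation-linked genes such as Stmn1. Penk carriers (right, 8 and 38 cells) have higher mean Mki67 and Birc5, each with UMIs in at most 25% of the carriers. Their mean Ifng is lower at this cutoff, but had opposite signs in the libraries in some alternative runs.

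Since both members were frequent in cluster 2, carriers were also set against cells with 0 inside that cluster of the deficient-labelled library. For Penk (18 against 89 cells) 273 of 3548 genes were higher (7.69%) and 99 lower (2.79%). Nrn1 had UMIs in 61.1% of these carriers and 4.49% of the others, Shtn1 in 61.1% and 3.37%, Kcnk10 in 66.7% and 7.87%, and Cd81 in 55.6% and 2.25%. These 18 carriers are among the 38 above, so the values are not independent of those. For Areg (20 against 79 cells) 115 of 3436 genes were higher (3.35%) and 35 lower (1.02%). The largest ratios were those of Pdzd2 (163 against 2.17 CPM), Nrn1 (268 against 15.3 CPM) and Cd81 (149 against 13.7 CPM). They had UMIs in only 20%, 30% and 20% of the 20 Areg carriers, against 2.53%, 10.1% and 11.4% of the others. These genes, and those named for Penk inside the cluster, passed the floor only through the carriers. Penk averaged 1337 CPM in those Areg carriers and 251 CPM in the others.

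Genes were also ranked by likeness to each member over all kept cells, as the lower of the 2 within-library correlations of log counts per 10000 among 10596 genes. For Penk the nearest was Tff1, with r of 0.253 over wild-type-labelled and 0.517 over deficient-labelled cells, then Ebf1 with 0.243 and 0.292. Shcbp1, Gem, Sgo2a, Kif11, Mad2l1, Cenpe, Cenpa and Depdc1a followed, with lower values between 0.145 and 0.166. For Areg the nearest was Gem, at 0.168 and 0.258, then Ifih1, Mpzl2, Cmip and Srxn1, with lower values from 0.104 to 0.150. Usp38, Irs2, Wdr17, Tet2 and Sla were below 0.101 in the wild-type-labelled library. Correlations below about the 0.168 of Gem are too weak to read in sparse counts, for either gene. By the deficient-labelled library alone Areg was nearest to Tnfsf8 (0.313) and Whrn (0.288), which stood at -0.0048 and 0.028 in the other library. By the same measure Penk was nearest to Kcnk10 (0.568) and Twist2 (0.559), which stood at 0.0096 and -0.0205 in the other library.

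Other genes of the EGF ligand family had few UMIs. Hbegf, which also signals through the EGF receptor, had 5.32 wild-type-labelled and 9.55 deficient-labelled CPM, 1.80-fold (1.42 to 2.28). Ereg, the neighbour of Areg on chromosome 5, had 0 and 1 UMI, Btc had none, and Tgfa had 0 and 4. The receptor gene Egfr had 17 and 14 UMIs in 6 and 5 cells, Erbb2 had none, and Erbb3 had 34 and 23. The shedding machinery was present: Adam17, the protease known to release amphiregulin, had 32.9 and 29.4 CPM (0.894-fold, 0.800 to 0.999), Adam10 42.2 and 75.8 CPM (1.79-fold, 1.65 to 1.95), and Rhbdf2, a cofactor of Adam17, 22.1 and 34.6 CPM (1.57-fold, 1.40 to 1.76).

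The other opioid precursor genes had few or no UMIs too. Pomc, the precursor of beta-endorphin, had 3.03 and 3.35 CPM (1.11-fold, 0.775 to 1.58), and Pdyn and Pnoc had no UMI. The neuroendocrine convertase genes Pcsk1 and Pcsk2 had 2 and 1, and 4 and 0 UMIs, and carboxypeptidase gene Cpe 17 and 15. The general convertase gene Furin had 391 and 392 CPM and the carboxypeptidase gene Cpd 231 and 158 CPM (0.682-fold, 0.651 to 0.713). Of the genes for enkephalin breakdown, Mme had 4 and 2 UMIs and Anpep had none, whereas Ece1 had 74.9 and 102 CPM (1.37-fold, 1.28 to 1.46).

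Of the opioid receptors Oprm1 alone was above a few UMIs, a gene singled out after its values were seen. Oprd1, the delta receptor gene, had 2 and 0 UMIs, and Oprk1 and Oprl1 had none. Oprm1, which encodes the mu receptor, had 114 wild-type-labelled UMIs (4.66 CPM) and 322 deficient-labelled UMIs (18.0 CPM), 3.86-fold (3.11 to 4.82), in 6.68% and 20.2% of cells. After thinning it was found in 21 of 1004 cells (2.09%) and 63 of 698 cells (9.03%). Among deficient-labelled cells it was found in 11 of 56 with a Penk UMI (19.6%, 10.2 to 32.4) and in 52 of 642 without (8.10%, 6.11 to 10.5), with intervals that overlapped. Among wild-type-labelled cells it was found in 0 of 13 with Penk (interval up to 24.7%).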

How the data were processed

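The authors deposited, per the file headers, raw counts of UMIs per gene and barcode for 2 libraries (1149 and 754 barcodes), written by Cell Ranger 7.0.0 and aligned to mm10 per the submitters' processing notes. The sources used here do not give the annotation. A barcode was kept if it had 500 genes or more and no more than 10% mitochondrial UMIs, which left 24452538 and 17898193 UMIs, so that 1 UMI is 0.0409 and 0.0559 CPM. The 12 multiplexing tags were kept out of the totals, and 0 other columns of samples were present. CPM intervals are exact Poisson, shares exact binomial (Clopper-Pearson), folds conditional binomial, all at 95%. The limit of a count of 0 is 3 counts, given beside the exact bound where both are printed.

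Cells were clustered with scanpy 1.11.5 (Leiden, 2000 variable genes, 30 components, 15 neighbours, resolution 0.6). Doublets (5 and 6 cells called) were kept and left out as an alternative. Genes named are the 10 highest and 5 lowest that met the carrier rule in both libraries, the 10 most alike, the list members with the extreme ratios, and all EGF and opioid pathway genes; others are marked in the text as picked after their values were seen. The members and the 30 gene lists were chosen with earlier results of these data known. The calculations were tested on simulated data. Alternatives were pseudocounts, scaling (edgeR 4.0.16 TMM, size factors), barcode filters, thinning depths, carrier cutoffs, floors, and leaving out cells. Positions come from GENCODE M21 and the promoter from RefSeq; Penk had no entry there.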

Additional observations from a re-analysis of the deposited data

Results flagged for a closer look

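Both genes were also present in barcodes that the filter left out, which no comparison above used. In the wild-type-labelled library 35 Areg UMIs in 4 of 131 such barcodes gave 78.4 CPM (interval 54.6 to 109), above the 6.72 CPM that a count of 0 allows. In the deficient-labelled library 25 Areg UMIs in 10 of 45 barcodes gave 164 CPM (106 to 242), and 243 Penk UMIs in 4 barcodes gave 1595 CPM (1401 to 1809), above a limit of 19.7 CPM. Wild-type-labelled Penk, with 3 UMIs, was at its limit. The cause was not tested.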

How the results depend on the processing

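No paired analysis was possible because each group is 1 library and the labels carry no replicate numbers. None of the ratios between libraries changed direction. The log2 ratio of Areg was 1.90 with a pseudocount of 5 CPM, 2.90 without the 5 richest cells and 3.14 without the cytotoxic type 1-like cluster, and that of Penk was 2.88, 3.33 and 3.91; for Penk the mean of per-cell CPM gave 3.40 and cluster 2 alone 3.83. The runs without that cluster, in cluster 2 alone and with carriers by unthinned UMIs were added after seeing the data. Shares with Areg in wild-type-labelled and deficient-labelled cells were 1.18% and 7.70% at 2000 UMIs, 4.44% and 18.0% at 10000, 7.27% and 23.8% unthinned, 0.598% and 7.59% at 2 or more UMIs, and 0.398% and 2.44% at 5 or more. For Penk they were 2.48% at 10000 UMIs in wild-type-labelled cells, 5.28% at 2000 in deficient-labelled cells, 4.03% and 12.1% unthinned, 5.44% at 2 or more UMIs in deficient-labelled cells, and 0.398% and 3.58% at 5 or more. Genes higher and lower in Areg carriers of both libraries numbered 0 and 0 at 1 UMI, 34 and 14 at 5 UMIs, 20 and 19 with a floor of 20 CPM, 1 and 0 by unthinned UMIs, and 15 were lower without the cytotoxic type 1-like cluster. For Penk they numbered 12 and 1 at 1 UMI, 45 higher at 5 UMIs, 53 and 5 with a floor of 20 CPM, and 1 lower by unthinned UMIs. Between libraries, 249 genes were higher and 370 lower at least 2-fold with no floor, and 68 lower with a floor of 50 CPM. The other 41 values of these results stayed close. Of the named genes, 49 values under an alternative no longer met the rule and 140 did; 8 of the 49 had opposite signs in the 2 libraries. With 6 and 8 wild-type-labelled carriers, the genes that go with either member rest on few cells there.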
